A study of Mus musculus with 8 samples.

Results

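The 34 genes described here encode the transport and breakdown of glucose to lactate and the response of cells to low oxygen. They were taken by symbol from the 27179 genes of a table of log2 CPM (the reads of a gene scaled to the size of its library, on a log2 scale), and all 34 were found. The table covers 8 subcutaneous tumors of C26 mouse colon carcinoma cells grown in adult CD2F1 male mice, sequenced as whole tissue. Of these, 4 tumors grew from cxC26 scr cells, a cachexia-inducing C26 line that carries a scrambled guide RNA and has intact Il6, and 4 grew from cxC26 IL6KOs1 cells, in which Il6 was disrupted with CRISPR/Cas9. The knockout line is 1 subclone, so a difference between the groups can come from the loss of Il6 or from the subclone, and these cannot be told apart. In the study's related experiments the knockout cells were inoculated in larger number and the mice reached this weight loss later, so inoculum and tumor age may differ between the groups in the same way. All tumors were taken once the mouse had lost more than 15% of its body weight. The host mice had intact Il6 in both groups.

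Glycolysis splits glucose into pyruvate in the cytosol, and lactate dehydrogenase reduces pyruvate to lactate, which restores the NAD+ that an upstream step consumes. Many of its steps are carried by several isozymes from separate genes. When oxygen is short, the prolyl hydroxylases of the Egln family work less, the transcription factor subunit Hif1a is no longer marked for destruction, and it binds with Arnt to short DNA motifs next to glycolytic and other target genes. Tumors are known for high glycolysis and for regions of poor oxygen supply.

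Il6 stood at 4.42, 4.33, 4.73 and 4.83 log2 CPM in the cxC26 scr tumors, given here and throughout in the order of replicates 1 to 4, and at 1.99, 2.03, 2.46 and 2.04 log2 CPM in the cxC26 IL6KOs1 tumors. It was lower in every knockout tumor and fell by 2.45 on the log2 scale (adjusted p = 1.76e-06, limma), and the remaining 56 to 86 reads per tumor can come from host cells or from transcripts of the disrupted gene. The libraries held between 14158989 and 17048062 reads on genes. Leukocyte markers were higher in the knockout tumors, with 4 of 4 called and a summed level of 238 to 512 CPM against 143 to 176 CPM, and cxC26 IL6KOs1 replicate 1 had the highest sum. All 6 macrophage markers were called higher too (792 to 1270 CPM against 406 to 592 CPM). Of 6 epithelial carcinoma markers only Krt18 and Cdh1 passed the filter on low values, and Cldn4 had 0 reads in every tumor. Both were called higher, with Krt18 at 0.49, 0.91, 0.78 and 0.48 log2 CPM in control and at 4.12, 4.28, 3.80 and 3.28 log2 CPM in knockout tumors. The summed epithelial level was 2.82 to 4.74 CPM in cxC26 scr and 14.4 to 25.4 CPM in cxC26 IL6KOs1 tumors.

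Few of the glycolysis and hypoxia genes were called different between the groups, while their levels scattered widely among the knockout tumors. All 34 reached 1 CPM in 4 or more of the tumors, the filter on low values. By limma's moderated test with Benjamini-Hochberg adjustment over the 13262 genes tested and a threshold of 0.05, 3 members (8.82%) were called higher in cxC26 IL6KOs1 tumors, where 19.1% of all genes tested were. A further 4 members (11.8%) were called lower, where 20.7% of all genes tested were. Slc2a3, Hk1 and Pfkp were the higher ones and Eno2, P4ha2, Hk2 and Ldha the lower ones. The groups did not overlap for 4 members (11.8%), against 37.1% of all genes tested. The median log2 difference (cxC26 IL6KOs1 minus cxC26 scr) was -0.09 over the members and -0.003 over all genes tested, and 15 of 34 members had a difference above 0. The leukocyte and macrophage markers given above were higher in the same tumors, and their part in the members' differences was not tested. In bulk tissue, fewer cells of a type and less RNA per cell cannot be told apart. The labels describe single animals only as separate samples. The p-values set each difference against the spread between these tumors, pooled over both groups. For the members that spread was wider in the knockout group (median SD 0.43 against 0.18), so the pooled value describes neither group well. A member that was not called is not thereby shown to have equal means.

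**Figure D1:**
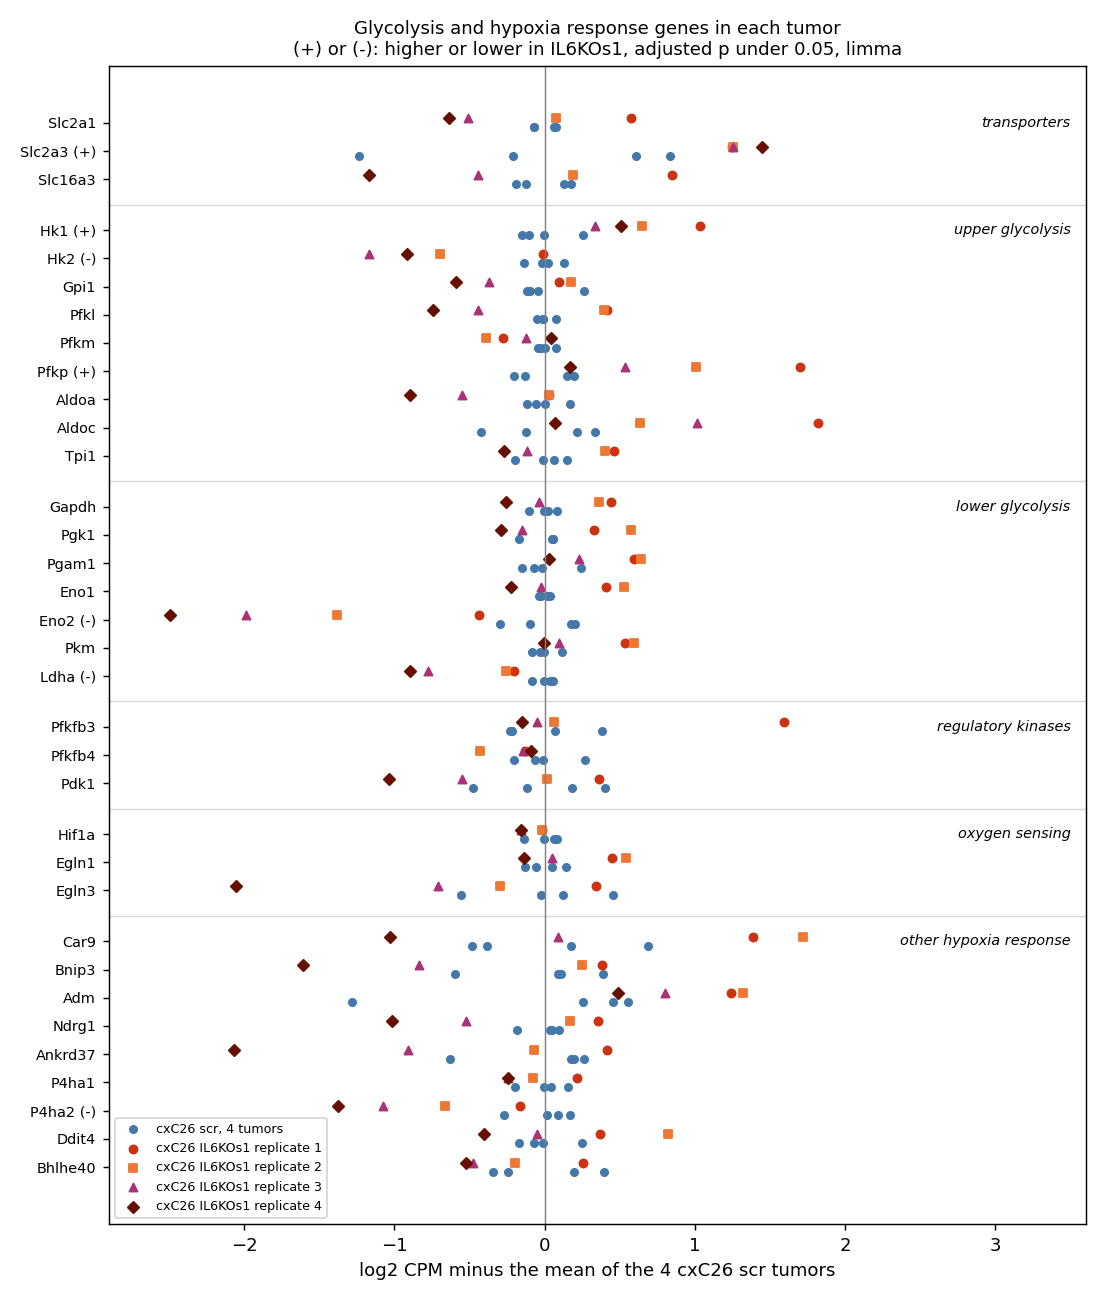
Level of each of the 34 genes in each tumor, as log2 CPM minus the mean of the 4 cxC26 scr tumors (x axis), with genes on the y axis grouped by role; circles in blue are cxC26 scr tumors and the other symbols are the 4 cxC26 IL6KOs1 tumors. The knockout tumors spread widely, with replicates 1 and 2 mostly to the right of replicates 3 and 4, and Eno2, Ldha, Hk1 and Slc2a3 are the genes whose groups do not overlap.

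Among the 3 transporters, 1 was called higher and 2 were not called. Slc2a3 encodes GLUT3, a glucose transporter of high affinity, and lies at chr6:122727809-122802363 (RefSeq annotation of GRCm38.p6, as for all positions here). It stood at -0.11, 0.71, -1.13 and 0.94 log2 CPM in the cxC26 scr tumors and at 1.35, 1.36, 1.36 and 1.55 log2 CPM in the knockout tumors. Every knockout tumor was above every control tumor. The log2 difference was 1.30 (SE 0.41, adjusted p = 0.0242), and it rests on 6 to 29 reads against 35 to 42 reads per tumor. The call was lost without cxC26 scr replicate 1 (adjusted p = 0.0539), without cxC26 IL6KOs1 replicate 3 (0.0502) or replicate 4 (0.0543). Slc2a1, which encodes GLUT1, the main glucose carrier of most dividing cells, stood at 7.14, 7.01, 7.01 and 7.15 log2 CPM in the control tumors and at 7.65, 7.15, 6.57 and 6.44 log2 CPM in the knockout tumors. Its control values lay within 0.14 of each other, and the knockout values surrounded them. The difference was -0.12 (95% interval -0.59 to 0.34). Slc16a3 encodes MCT4, which exports lactate, and stood at 3.84, 4.09, 3.77 and 4.14 log2 CPM against 4.81, 4.15, 3.52 and 2.79 log2 CPM. Knockout replicates 1 and 2 were above all control tumors and knockout replicates 3 and 4 below them, with a difference of -0.14 (95% interval -0.87 to 0.59).

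The first step of glycolysis, phosphorylation of glucose by hexokinase, moved in opposite directions in Hk1 and Hk2. Hk1, the broadly expressed isozyme, at chr10:62268855-62379920, stood at 6.53, 6.12, 6.17 and 6.27 log2 CPM in the control tumors and at 7.31, 6.92, 6.61 and 6.78 log2 CPM in the knockout tumors. No knockout tumor was as low as any control tumor. Hk1 rose by 0.63 on the log2 scale (SE 0.14, adjusted p = 0.00453), a fold of 1.55, and was called whichever tumor was left out. The 627 tested genes of chromosome 10 had a median difference of 0.32, and with the chromosome's median removed Hk1 was not called (difference 0.31, adjusted p = 0.122). Hk2, the isozyme that insulin and low oxygen induce, at chr6:82725025-82774454, stood at 6.16, 6.27, 6.12 and 6.0 log2 CPM against 6.13, 5.44, 4.97 and 5.22 log2 CPM. Knockout replicate 1 lay within the control range and the other 3 knockout tumors below it. Hk2 fell by 0.70 (SE 0.20, adjusted p = 0.0148) and was also called with each tumor left out. Gpi1, which converts glucose 6-phosphate to fructose 6-phosphate, was not called, with 8.55 to 8.93 log2 CPM in control and 8.08 to 8.84 log2 CPM in knockout tumors.

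Phosphofructokinase, the committed step, has 3 isozyme genes, of which only Pfkp was called. Pfkp, the platelet type, at chr13:6579874-6649060, stood at 4.10, 4.15, 3.82 and 3.75 log2 CPM in control and at 5.65, 4.96, 4.49 and 4.12 log2 CPM in knockout tumors. Only knockout replicate 4 overlapped the control range. The difference was 0.85 (SE 0.26, adjusted p = 0.0238), and the call was lost without knockout replicate 2 (adjusted p = 0.0551), control replicate 3 (0.0615) or control replicate 4 (0.0656). Pfkl, the liver type, was the member of this group nearest to no difference, at 7.70, 7.66, 7.79 and 7.70 log2 CPM against 8.13, 8.11, 7.27 and 6.97 log2 CPM. Knockout replicates 1 and 2 were above all control tumors and replicates 3 and 4 below all of them, so that the difference of -0.09 (95% interval -0.58 to 0.39) sat beside an SD of 0.59 in knockout and 0.06 in control tumors. Pfkm, the muscle type, whose locus overlaps Senp1, ranged from 5.58 to 5.70 log2 CPM in control and from 5.24 to 5.67 log2 CPM in knockout tumors and was not called, but with the chromosome's median removed it was called lower (-0.32, adjusted p = 0.0326).

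The aldolases and triose phosphate isomerase, which split the hexose and interconvert the products, were not called. Aldoa, the main aldolase here, stood at 9.89, 9.72, 9.66 and 9.60 log2 CPM in control and at 9.75, 9.75, 9.17 and 8.82 log2 CPM in knockout tumors, a difference of -0.35 (95% interval -0.76 to 0.06). Aldoc, the brain-type aldolase, had a difference of 0.88 (SE 0.38, adjusted p = 0.0874), on 11 to 18 reads in control and 14 to 54 reads in knockout tumors. Its values were 0.15, -0.49, -0.19 and 0.27 log2 CPM against 1.75, 0.57, 0.95 and 0.00 log2 CPM, and only knockout replicate 4 overlapped the controls. Aldoc was called without that tumor (1.15, adjusted p = 0.032), and without knockout replicate 1 its difference was 0.57 (adjusted p = 0.234). Tpi1 ranged from 8.98 to 9.33 log2 CPM and from 8.91 to 9.64 log2 CPM in control and knockout tumors.

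In the lower part of the pathway, from glyceraldehyde phosphate to lactate, 2 of 7 genes fell and 5 were not called. Eno2, the neuronal type of enolase, which many tumors also express, at chr6:124760053-124769673, had the largest difference of all members. It stood at 5.40, 5.90, 5.60 and 5.87 log2 CPM in control and at 5.26, 4.31, 3.71 and 3.20 log2 CPM in knockout tumors. All knockout tumors were below all control tumors, replicate 1 by the least. Eno2 fell by 1.57 on the log2 scale (SE 0.34, adjusted p = 0.00361), to 0.336 times the control level, and was called with each tumor left out. Ldha, the muscle-type subunit of lactate dehydrogenase, at chr7:46842274-46855627, stood at 10.74, 10.82, 10.88 and 10.86 log2 CPM against 10.62, 10.57, 10.05 and 9.93 log2 CPM. Its groups did not overlap, and it fell by 0.53 (SE 0.16, adjusted p = 0.0196), to 0.692 times the control level. The call was lost without control replicate 3 (adjusted p = 0.0523) or knockout replicate 3 (0.066), and also with the median of chromosome 7 removed (difference -0.26, adjusted p = 0.241), since the 992 tested genes of that chromosome had a median of -0.27.

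The other lower-pathway genes lay slightly higher on average in the knockout group and were not called. Pgam1, phosphoglycerate mutase, came closest, at 7.92, 7.66, 7.61 and 7.53 log2 CPM in control and 8.27, 8.32, 7.91 and 7.71 log2 CPM in knockout tumors (difference 0.37, SE 0.14, adjusted p = 0.0504). It was called without control replicate 1 (adjusted p = 0.0285) or without knockout replicate 4 (0.0115). Pkm, pyruvate kinase, whose muscle and tumor isoforms share one gene and are not separated in these values, stood at 11.54, 11.49, 11.69 and 11.57 log2 CPM against 12.11, 12.17, 11.67 and 11.57 log2 CPM. Knockout replicates 1 and 2 were above all controls and replicates 3 and 4 within their range. Pgk1, phosphoglycerate kinase, had the smallest difference of the lower pathway (0.11, 95% interval -0.26 to 0.49), at 9.71, 9.94, 9.94 and 9.93 log2 CPM against 10.21, 10.46, 9.73 and 9.59 log2 CPM. Eno1, the general enolase, stood at 10.07, 10.09, 10.02 and 10.03 log2 CPM in control and at 10.46, 10.58, 10.03 and 9.83 log2 CPM in knockout tumors. Eno1 reads are uncertain because the near-identical copy Eno1b took between 28.7% and 30.3% of the reads of both in every tumor; summed, the 2 rows differed by 0.18 between the groups.

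Scaled to the length of the longest transcript, the order of the mean levels in control tumors ran from Pkm (10.29 log2 CPM per kilobase) through Ldha (9.96), Aldoa (9.09), Eno1 (9.03), Pgk1 (9.01) and Tpi1 (8.5) to Gpi1 (6.99) and Pgam1 (6.85). Aldoa, Eno1 and Pgk1 lay within their spread of each other. The longest transcript need not be the one expressed, so the order is approximate. Hk1 (4.18 per kilobase) was above Hk2 (3.68) in control tumors, and the distance widened to 4.81 against 2.98 in knockout tumors. Gapdh, which oxidises glyceraldehyde phosphate, stood at only 4.34 log2 CPM per kilobase in control tumors, far below its neighbours in the pathway. The length used for Gapdh was 3289 bases, and a shorter main transcript would raise the scaled level. Gapdh held 807 to 1467 reads per tumor, and 10 further rows for its pseudogenes held 108 to 220 reads in total. Its level is also uncertain because reads that match many near-identical copies may not have been counted. Gapdh ranged from 5.95 to 6.14 log2 CPM in control and from 5.80 to 6.5 log2 CPM in knockout tumors and was not called.

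**Figure D2:**
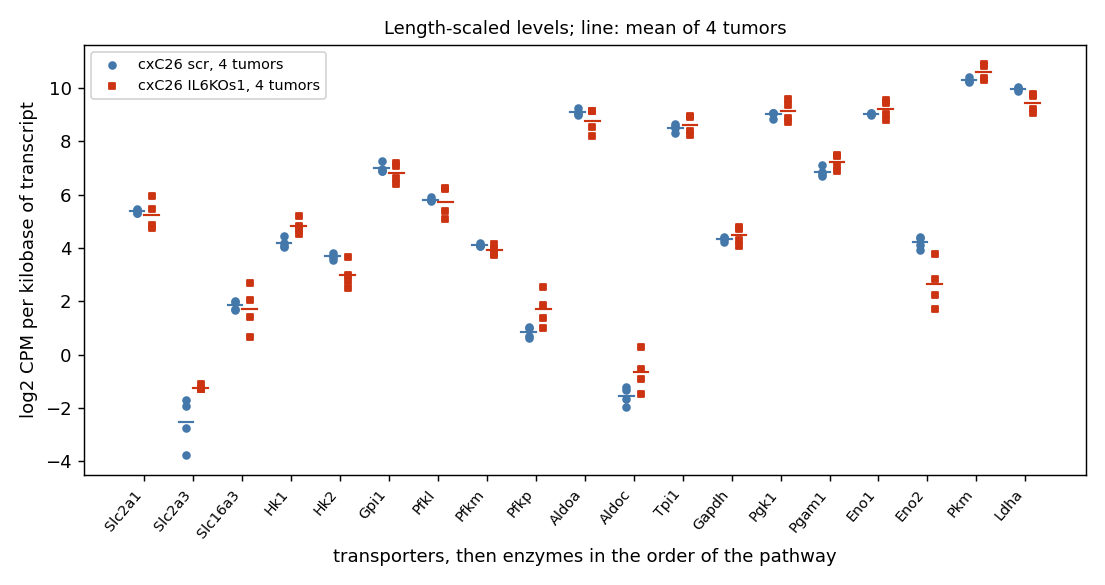
Length-scaled level (log2 CPM per kilobase of the longest transcript, y axis) of the transporters and glycolytic enzymes in pathway order (x axis); blue circles are the 4 cxC26 scr tumors, red squares the 4 cxC26 IL6KOs1 tumors, and lines the group means. Pkm is highest, Gapdh lies well below its pathway neighbours, and Eno2 and Ldha are the enzymes whose knockout tumors all lie below the controls.

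Together the 16 glycolytic enzyme genes from hexokinase to lactate dehydrogenase took 0.913%, 0.943%, 0.983% and 0.95% of the reads on genes in the control tumors and 1.17%, 1.16%, 0.843% and 0.765% in the knockout tumors. Their share was thus above every control in knockout replicates 1 and 2 and below every control in replicates 3 and 4. The group means were 0.947% ± 0.0288 and 0.986% ± 0.213 (SD, n = 4 each). Pkm took 0.442% and 0.443% of reads in knockout replicates 1 and 2, against 0.291% to 0.331% in controls, whereas Ldha took 0.0992% to 0.158% in knockout tumors against 0.167% to 0.189% in controls.

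None of the 3 regulatory kinases was called by limma at the adjusted threshold. Pfkfb3 makes fructose 2,6-bisphosphate, the strongest activator of phosphofructokinase, and stood at 2.82, 3.43, 2.83 and 3.12 log2 CPM in control and at 4.64, 3.11, 3.00 and 2.90 log2 CPM in knockout tumors. One tumor, knockout replicate 1, stood apart while the other 3 lay within the control range, and the difference was 0.37 with it (95% interval -0.37 to 1.10) and -0.04 without it. The related kinase Pfkfb4 stood at 4.00, 3.53, 3.67 and 3.72 log2 CPM against 3.6, 3.30, 3.59 and 3.64 log2 CPM, with a difference of -0.20 (95% interval -0.51 to 0.11). Pdk1, which shuts pyruvate out of the mitochondrial oxidation route, stood at 5.52, 5.88, 6.18 and 6.40 log2 CPM against 6.36, 6.01, 5.45 and 4.96 log2 CPM. The values covered 0.88 log2 units in control and 1.40 in knockout tumors, and the 95% interval of the difference ran from -0.89 to 0.29.

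The transcript of the oxygen-responsive factor itself had the smallest SD of all members over the knockout tumors. Hif1a stood at 7.34, 7.43, 7.21 and 7.41 log2 CPM in control and at 7.33, 7.33, 7.19 and 7.19 log2 CPM in knockout tumors. The groups overlapped, the SDs were 0.10 and 0.08, and the 95% interval of the difference was -0.26 to 0.09. Hif1a is regulated mainly by destruction of its protein, which was not measured here. Egln1, the main oxygen-sensing prolyl hydroxylase and itself a target of the factor, stood at 6.84, 6.75, 6.57 and 6.64 log2 CPM against 7.15, 7.24, 6.75 and 6.56 log2 CPM. Knockout replicates 1 and 2 were above all controls, and the gene was called only without knockout replicate 4 (0.35, adjusted p = 0.0478) among the tumors left out. Egln3, a strongly hypoxia-induced hydroxylase, had only 4 to 28 reads per tumor and stood at 0.49, 0.82, -0.19 and 0.34 log2 CPM against 0.71, 0.07, -0.34 and -1.69 log2 CPM. The 95% interval of its difference, -1.73 to 0.37, leaves the direction undetermined at this depth.

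Of 9 other hypoxia response genes, P4ha2 fell and 8 were not called. P4ha2 encodes a catalytic subunit of collagen prolyl 4-hydroxylase and lies at chr11:54100924-54131668. It stood at 5.69, 5.62, 5.33 and 5.77 log2 CPM in control and at 5.44, 4.94, 4.53 and 4.23 log2 CPM in knockout tumors. Knockout replicate 1 overlapped the controls and the other 3 lay below. P4ha2 fell by 0.82 (SE 0.21, adjusted p = 0.0107), to 0.567 times the control level, and was called with each tumor left out. Its partner isozyme P4ha1 had the smallest difference of this group, at 7.86, 7.97, 7.62 and 7.81 log2 CPM against 8.03, 7.74, 7.57 and 7.57 log2 CPM (-0.09, 95% interval -0.34 to 0.16). With the median of chromosome 10 removed, P4ha1 was called lower (-0.41, adjusted p = 0.0177).

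Several hypoxia genes ranged over more than 1 log2 unit among knockout tumors. Bnip3, which marks mitochondria for removal, stood at 7.0, 7.69, 7.71 and 7.99 log2 CPM in control and at 7.98, 7.85, 6.76 and 5.99 log2 CPM in knockout tumors. Ankrd37, an ankyrin repeat gene induced by hypoxia, stood at 4.93, 5.75, 5.82 and 5.73 log2 CPM against 5.97, 5.49, 4.65 and 3.49 log2 CPM. Car9, a carbonic anhydrase at the cell surface that serves as a hypoxia marker, stood at 2.36, 1.29, 1.19 and 1.85 log2 CPM against 3.06, 3.39, 1.76 and 0.64 log2 CPM, on 22 to 145 reads. In all these genes knockout replicate 4 was the lowest of the 8 tumors, and in Bnip3 replicate 1 stood at the top of its group beside control replicate 4. Ankrd37, with a difference of -0.66 over all tumors, was called without knockout replicate 1 (-1.02, adjusted p = 0.0436), and was at -0.19 (adjusted p = 0.641) without knockout replicate 4. Ndrg1, a stress-responsive gene, ranged from 7.53 to 7.81 log2 CPM in control and from 6.70 to 8.07 log2 CPM in knockout tumors.

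Adm, which encodes the vasodilator peptide adrenomedullin, had the largest difference among these genes (0.96, SE 0.41, adjusted p = 0.0844), on 6 to 42 reads per tumor. It stood at 0.61, 0.71, -1.13 and 0.41 log2 CPM in control and at 1.39, 1.47, 0.95 and 0.64 log2 CPM in knockout tumors, and the lowest knockout tumor lay within the control range. Without control replicate 3, which had 6 reads, the difference was 0.53 (adjusted p = 0.197), and with the chromosome's median removed Adm was called (1.23, adjusted p = 0.038). Ddit4, an inhibitor of mTORC1 signalling, ranged from 5.24 to 5.66 log2 CPM in control and from 5.01 to 6.23 log2 CPM in knockout tumors. Bhlhe40, a transcriptional repressor that hypoxia induces, ranged from 5.58 to 6.32 log2 CPM and from 5.40 to 6.18 log2 CPM, with SDs of 0.35 and 0.36.

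Most of these genes varied more among the knockout tumors than among the control tumors. The SD over the 4 knockout tumors was larger than that over the 4 control tumors for 30 of 34 members (88.2%), against 54.6% of all genes tested. It was more than 2 times as large for 25 members (73.5%), against 19.5% of all genes tested. The median SD of the members was 0.18 log2 units in control and 0.43 in knockout tumors, whereas the medians over all genes tested were 0.17 and 0.18. The exceptions were Slc2a3, Pfkfb4, Hif1a and Adm, of which Slc2a3 and Adm have low reads. For Eno1 the SD was 0.03 in control and 0.35 in knockout tumors, and for Pfkl 0.06 and 0.59. With 1 tumor left out at a time, between 26 and 32 members had the larger SD in the knockout group, the lowest number coming without knockout replicate 1, where the share of all genes tested was 47.1%. The members share the same 8 libraries and are not independent, so these counts are descriptions.

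**Figure D3:**
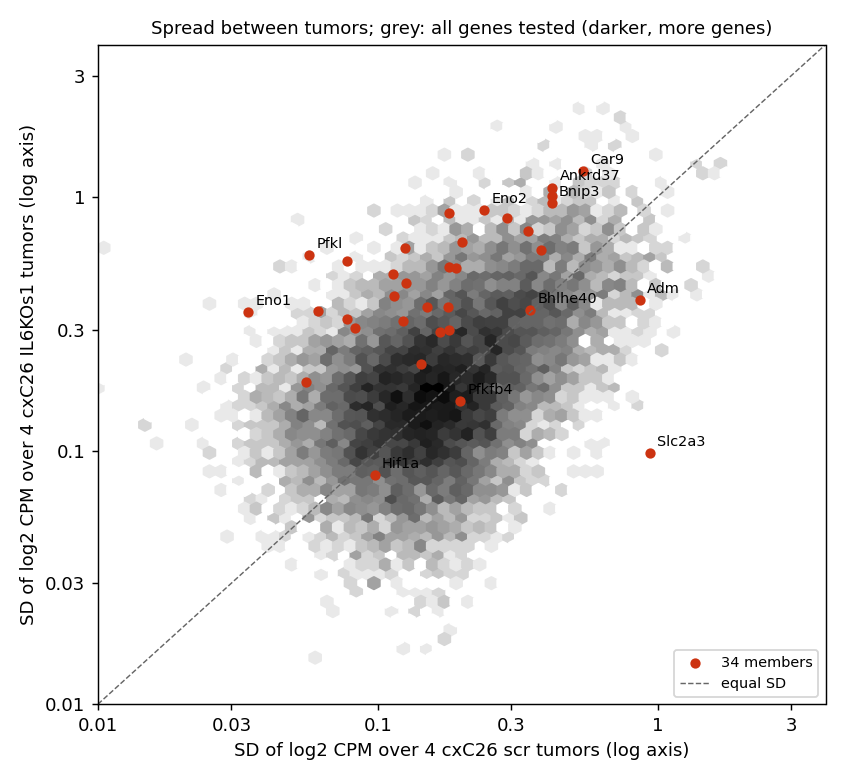
SD of log2 CPM over the 4 cxC26 scr tumors (x axis, log scale) against the SD over the 4 cxC26 IL6KOs1 tumors (y axis, log scale) for all genes tested (grey hexagons, darker with more genes) and the 34 members (red). Of the members, 30 lie above the dashed line of equal SD, while Hif1a, Pfkfb4, Adm and Slc2a3 lie below it.

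The same tumors were high and low across genes. Against the mean of its own group, knockout replicate 1 was higher in 32 of 34 members and replicate 2 in 28, while replicates 3 and 4 were higher in 3 each. The median deviation over the members was 0.39, 0.28, -0.24 and -0.45 log2 units in knockout replicates 1 to 4, and between -0.08 and 0.04 in the control tumors. Over all genes tested the medians lay between -0.01 and 0.01 in every tumor, which the scaling to library size holds near 0. Replicate 4 was the lowest knockout tumor in 28 members (82.4%) and replicate 1 the highest in 22 (64.7%), against 24.9% and 28% of all genes tested. In 30 members (88.2%) both replicates 1 and 2 exceeded both replicates 3 and 4, against 20.7% of all genes tested, a split that was chosen after the values were seen. The labels give no feature of these tumors, such as size or collection day, that follows this order.

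Set against the range of the 4 control tumors, the knockout tumors lay on opposite sides. Knockout replicate 1 was above all controls in 21 members and below all of them in 3, and replicate 2 in 18 and 6. Replicate 3 was above in 5 and below in 18, and replicate 4 above in 2 and below in 24. Over all genes tested, each knockout tumor was above the control range in 32.1% to 34.9% and below it in 33.4% to 35.5%. Some marker levels moved with this order and some did not, and their part in it was not tested. The leukocyte sum was 512, 238, 312 and 339 CPM in knockout replicates 1 to 4, the macrophage sum 1270, 792, 925 and 897 CPM, the fibroblast sum 3250, 3520, 4130 and 4880 CPM and the skeletal muscle sum 26.4, 70.4, 103 and 346 CPM. The epithelial sum was 24.4, 25.4, 18.6 and 14.4 CPM, the adipocyte sum 98.3, 114, 224 and 157 CPM and the erythroid sum 9.55, 16.4, 51.5 and 31.6 CPM. The epithelial sum was thus higher in knockout replicates 1 and 2 than in replicates 3 and 4. The neutrophil sum (29.1, 18.1, 17.8 and 16.2 CPM) was nearly level in replicates 2 to 4, and only replicate 1 stood apart. The fibroblast, muscle, adipocyte and erythroid sums were lower in replicates 1 and 2, as was the endothelial sum (101, 102, 126 and 115 CPM). Such sums varied among control replicates 1 to 4 too, with muscle at 41.4, 170, 44 and 11.4 CPM. The control adipocyte sums were 117, 156, 115 and 167 CPM and the erythroid sums 23.6, 44.3, 12.9 and 11.6 CPM. In the same control tumors the median deviation of the members was 0.02, 0.04, -0.08 and 0.03 log2 units. Single markers did not all follow their sum, such as Col1a1 of the fibroblast list at 10.12, 9.99, 9.88 and 10.47 log2 CPM. Neither the proliferation sum (1480, 1370, 1310 and 1700 CPM) nor the T cell sum (14.2, 6.32, 7.4 and 8.93 CPM) kept the order. The leukocyte and macrophage sums were lowest in replicate 2, which was high in these genes.

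Further hypoxia response genes showed the same order of knockout tumors in weaker form. Of 40 listed, 35 were tested, and the median deviation from the group mean was 0.21, 0.06, -0.10 and -0.24 log2 units in knockout replicates 1 to 4. Both replicates 1 and 2 exceeded both others in 19 of the 35 (54.3%). The wider knockout spread was also seen in this list, with the larger SD in the knockout group for 23 of the 35 (65.7%). For 14 (40%) it was more than 2 times as large, against 54.6% and 19.5% of all genes tested. Vegfa, the growth factor for blood vessels, stood at 7.16, 7.43, 7.25 and 7.48 log2 CPM in control and at 7.68, 7.60, 7.15 and 6.90 log2 CPM in knockout tumors. Ero1a, an oxidase of protein folding, stood at 6.78, 6.84, 6.58 and 6.86 log2 CPM against 7.77, 7.89, 6.80 and 6.77 log2 CPM, and Mif, a cytokine, at 7.49, 7.53, 7.42 and 7.28 log2 CPM against 7.79, 7.93, 7.22 and 6.72 log2 CPM. These 3 genes, chosen after their values were seen, were not called. The 13 tested components of the oxygen-sensing machinery did not share the order, with medians of 0.01, -0.03, 0.01 and 0.10. Nor did 13 other glycolytic isozymes and neighbours (0.03, -0.01, -0.12 and 0.01), of which 5 (38.5%) had the larger SD in the knockout group. In 4 of these (30.8%) it was more than 2 times as large, against 19.5% of all genes tested. Genes of pyruvate handling and gluconeogenesis had medians of -0.15, 0.10, 0.04 and 0.05. Those of the pentose phosphate pathway and glycogen metabolism had -0.01, 0.13, -0.06 and -0.11.

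**Figure D4:**
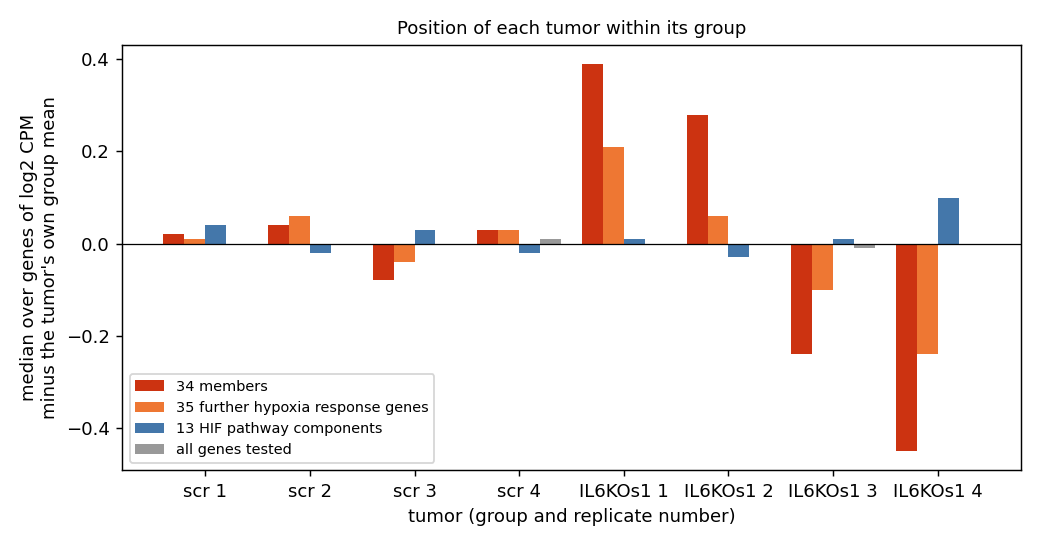
Median over the genes of a set of the deviation (log2 CPM minus the mean of the tumor's own group, y axis) for each of the 8 tumors (x axis); bars are the 34 members, the 35 further hypoxia response genes, the 13 HIF pathway components and all genes tested. The members run from 0.39 in cxC26 IL6KOs1 replicate 1 to -0.45 in replicate 4, and the bars of all genes tested stay within 0.01 of 0.

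The core letters of the hypoxia response element, which the complex of Hif1a and Arnt binds, were searched for next to these genes. RefSeq windows of GRCm38.p6 from 250 bases before to 50 after a transcription start were at hand for 31 of the 34 members, and Slc2a3, Bhlhe40 and Ndrg1 had none. Letters ACGTG on either strand, where a palindrome CACGTG counts once for each strand, occurred in 25 of 44 member windows (56.8%), in 25% of the windows of genes tested and in 19.6% of all 32851 windows. With GCGTG allowed as well, the shares of windows were 81.8%, 61.1% and 43.8%. Some members had several windows, and by gene ACGTG occurred in 71% of the members and 29% of the genes tested. The members were listed as hypoxia response and glycolytic genes, so a higher share was partly built into that choice. The stretches shown are those before the start of genes called lower (Ldha, P4ha2, Hk2) of genes with a wide spread among knockout tumors (Bnip3, Ankrd37, Car9, Slc16a3) and of the glycolytic gene Pgk1, which holds the letters at 2 places, with ACGTG or its complement CACGT in capitals. Ldha is at chr7:46845647-46845786, plus strand, P4ha2 at chr11:54100834-54100862, plus strand, Hk2 at chr6:82774490-82774518, minus strand, Bnip3 at chr7:138909597-138909626, minus strand, Ankrd37 at chr8:45999851-45999868, minus strand, Car9 at chr4:43506996-43507024, plus strand, Slc16a3 at chr11:120949028-120949066, plus strand and Pgk1 at chrX:106186938-106186985, plus strand.
Ldha: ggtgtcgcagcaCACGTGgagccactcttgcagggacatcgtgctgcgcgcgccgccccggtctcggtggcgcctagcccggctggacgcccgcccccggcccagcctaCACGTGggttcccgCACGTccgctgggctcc
P4ha2: tgtgcatcgcatACGTGcagcgcgtggcg
Hk2: aatgagcacatcCACGTcactgtccgggg
Bnip3: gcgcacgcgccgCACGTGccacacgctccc
Ankrd37: cagtgtttgggtACGTGa
Car9: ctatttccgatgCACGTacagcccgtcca
Slc16a3: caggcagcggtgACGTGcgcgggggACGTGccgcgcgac
Pgk1: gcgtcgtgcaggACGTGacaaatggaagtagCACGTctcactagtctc

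In the Ldha stretch the letters occur at 3 places, of which the first and second are the palindrome, and Bnip3 holds the palindrome once. The 22 members with ACGTG in a window had a median log2 difference of -0.09, with 1 called higher and 3 lower, and the 9 members without it had the same median, with 1 higher and 1 lower. Their median SDs over knockout tumors were 0.48 and 0.39 log2 units. Eno2, with the largest decrease, had neither ACGTG nor GCGTG in its window, as was true of Tpi1 and Gpi1, which says only that these letters are not in those windows. A match of letters is a description of the sequence and not evidence of binding.

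Ratios between related genes cancel what moves both genes of a tumor together. For 11 pairs the log2 ratio of CPM was compared between groups by a two-sided exact permutation test, whose smallest possible p is 0.0286 with 4 tumors against 4. CPM was not scaled to length here, so a ratio is compared between tumors and not read as which gene is more abundant. The groups did not overlap for 6 pairs, each at that smallest p and at an adjusted p of 0.0524 over the 11 pairs. No pair thus passed the adjusted threshold. Among single genes tested, 37.1% did not overlap, and no such share was computed for other pairs, so the count of pairs is a description. Hk1, Eno2 and Ldha, which are in these pairs, did not overlap as single genes either. The log2 ratio of Hk2 to Hk1 was -0.36, 0.15, -0.05 and -0.27 in control and -1.19, -1.48, -1.64 and -1.56 in knockout tumors. All 4 knockout tumors shifted to a like extent, with a difference of -1.33 and SDs of 0.23 and 0.20 (n = 4 each).

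Eno2 to Eno1 went from -4.68, -4.19, -4.42 and -4.15 to -5.20, -6.27, -6.32 and -6.63, a difference of -1.74. P4ha2 to P4ha1 went from -2.17, -2.35, -2.29 and -2.04 to -2.60, -2.80, -3.03 and -3.34, a difference of -0.73, and with the chromosome medians removed it was -0.26 (exact permutation p = 0.229). Pfkp to Pfkl rose in every knockout tumor above the controls, by 0.95, and Aldoc to Aldoa by 1.23 on the low reads of Aldoc. Ldhb, the heart-type subunit of lactate dehydrogenase, had 8 to 12 reads in control and 11 to 49 reads in knockout tumors and did not pass the filter, so its ratio to Ldha (difference 2.18) rests on few reads. The ratios whose groups overlapped were Pfkp to Pfkm (exact permutation p = 0.0857), Slc2a1 to Slc2a3 and Egln3 to Egln1 (0.0571 each), Pfkfb4 to Pfkfb3 (0.286) and Slc16a3 to Slc16a1 (0.971).

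**Figure D5:**
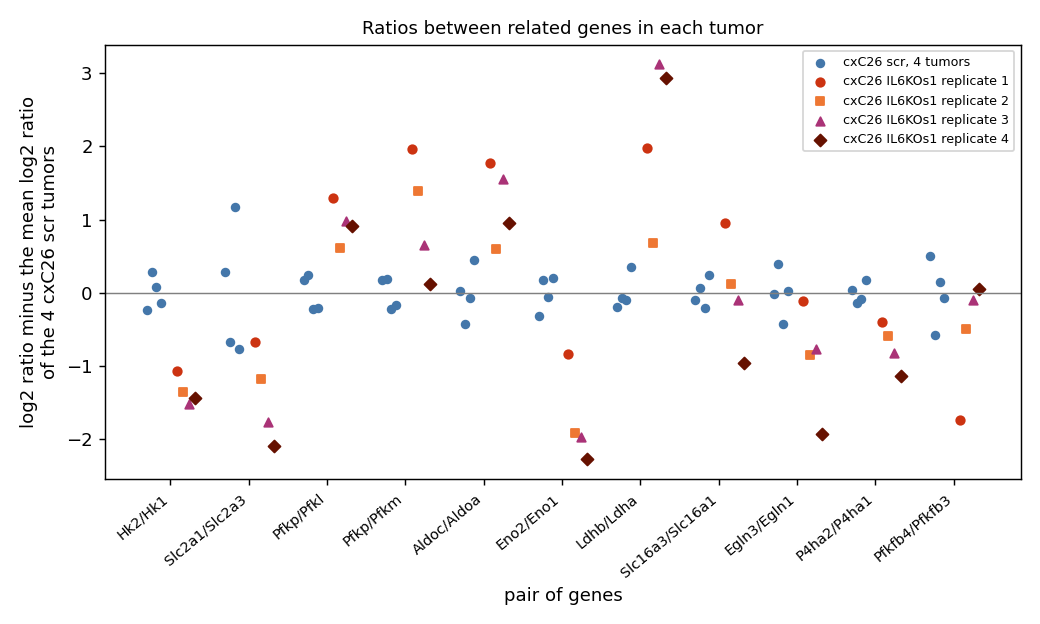
Log2 ratio of CPM between the genes of 11 pairs (x axis) in each tumor, minus the mean log2 ratio of the 4 cxC26 scr tumors (y axis); blue circles are cxC26 scr tumors and the other symbols the cxC26 IL6KOs1 tumors. The 4 knockout tumors lie close together and below the controls for Hk2/Hk1 (difference -1.33), and spread on both sides of them for Slc16a3/Slc16a1 (difference 0.00).

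Neighbouring pathways, from lists that do not contain the members, were called as follows. Among 13 tested glycolytic isozymes and neighbours, 2 rose and 3 fell, where 19.1% of all genes tested rose and 20.7% fell. Hk3, a hexokinase found mainly in myeloid cells, rose by 1.80 (SE 0.47, adjusted p = 0.0105), at 2.49, 2.70, 1.83 and 1.21 log2 CPM in control and 5.41, 3.75, 3.06 and 3.23 log2 CPM in knockout tumors, and the part of the leukocyte markers, which rose in the same tumors, was not tested. Slc16a7, a monocarboxylate transporter, rose by 1.54 (adjusted p = 0.00311), while Gapdhs, the sperm form of Gapdh, fell by 0.83 (adjusted p = 0.00841) and Pfkfb2 by 0.55 (adjusted p = 0.0164). The lactate transporter Slc16a1 was not called, at 8.61 to 8.73 log2 CPM in control and 8.32 to 8.74 log2 CPM in knockout tumors.

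In pyruvate handling and gluconeogenesis, 4 of 15 tested genes rose and 1 fell, beside the same 19.1% and 20.7% of all genes tested. Me1, cytosolic malic enzyme, rose by 1.51 (SE 0.19, adjusted p = 0.000142), from 4.71, 4.42, 4.07 and 4.49 log2 CPM to 5.39, 6.39, 5.96 and 5.98 log2 CPM. Both subunits of the mitochondrial pyruvate carrier rose, with Mpc1 higher by 0.57 (adjusted p = 0.00565) and Mpc2 by 0.36 (adjusted p = 0.0303), and Pck2, the mitochondrial phosphoenolpyruvate carboxykinase, by 0.79 (adjusted p = 0.0278). Pdp1, the phosphatase that reactivates pyruvate dehydrogenase, fell by 0.93 (adjusted p = 8.99e-05). Of 17 tested genes of the pentose phosphate pathway and glycogen metabolism, 4 rose (19.1% over all genes) and 1 fell (20.7% over all genes). Gbe1, the glycogen branching enzyme, rose by 0.82 (SE 0.10, adjusted p = 0.000136), Pygl, a glycogen phosphorylase, by 0.93 (adjusted p = 0.0141) Pgd, which makes NADPH in the oxidative branch, by 0.47 (adjusted p = 0.00788) and Rpia, ribose 5-phosphate isomerase, by 0.45 (adjusted p = 0.0129), while Rpe, an epimerase of the same pathway, fell by 0.34 (adjusted p = 0.0105).

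Among 13 tested components of the oxygen-sensing machinery, 1 rose and 4 fell, against 19.1% and 20.7% of all genes tested. The partner subunit Arnt ranged from 6.45 to 6.51 log2 CPM in control and from 6.41 to 6.62 log2 CPM in knockout tumors, and Epas1, which encodes HIF-2 alpha, from 4.27 to 4.93 and from 4.12 to 4.71 log2 CPM, and neither was called. Arnt2 rose by 0.64 (adjusted p = 0.0159), and the coactivators Crebbp and Ep300 fell by 0.43 (adjusted p = 0.0238) and 0.33 (adjusted p = 0.016). Egln2, the remaining prolyl hydroxylase, fell by 0.31 (adjusted p = 0.0172).

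Of the 35 further hypoxia response genes tested, 6 rose (17.1%) and 7 fell (20%), close to the 19.1% and 20.7% of all genes tested, with a median difference of 0.02. Car12, a carbonic anhydrase like Car9, fell by 5.51 (SE 0.23, adjusted p = 9.94e-08), from 4.88, 4.64, 4.65 and 4.71 log2 CPM to -0.93, -1.33, -0.46 and -0.46 log2 CPM. Plod2, a lysyl hydroxylase of collagen, rose by 2.43 (SE 0.12, adjusted p = 1.84e-07), from 6.03, 6.47, 6.57 and 6.57 log2 CPM to 8.78, 8.84, 8.91 and 8.82 log2 CPM. These 2 hypoxia response genes thus differed between the groups by far more than any member, in opposite directions, and the SD of Plod2 over the knockout tumors was 0.05. Ppp1r3b, a glycogen-targeting phosphatase subunit, rose by 1.17 (adjusted p = 0.00474), and Lox, a lysyl oxidase, by 1.15 (adjusted p = 0.0202).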

How the data were processed

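RNA of 8 tumors was sequenced as paired reads, and samples were grouped by title (4 cxC26 scr, 4 cxC26 IL6KOs1). The authors trimmed the reads, aligned them to mm10 (GRCm38) with HISAT2, counted them per gene and deposited log2 CPM from limma-voom. The annotation and the strand setting are not given in the sources used here, so overlapping and antisense genes are uncertain. The deposited log2 values hold an offset of 0.5 reads, which understates changes of low genes. Inverting them gave whole reads for 100% of values (within 0.001 of a whole number) and totals of 14158989 to 17048062 reads. Such totals limit the precision of genes with few reads.

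The 13262 genes that reached 1 CPM in 4 or more tumors were tested in R 4.3.3 with limma 3.58.1 (lmFit, eBayes with trend, no covariates), with Benjamini-Hochberg adjustment at 0.05. The fit was also run on simulated data with independent genes and the same dispersion in both groups. That setting lacks the wider knockout spread of the members, so it does not show how the fit performs for them. Ratios were compared by exact permutation over 70 assignments. Members and lists were chosen with earlier results of these data known. Named in full were members called with a difference of at least 1, the largest and smallest difference of each role, and up to 4 called genes of each further list by size; other values were added after they were seen. Positions and promoter windows came from RefSeq (GRCm38.p6), transcript lengths from GENCODE. Alternatives were other filters, scalings, pseudocounts, thresholds, weights, variance models, a replicate block, removal of chromosome medians and each tumor left out.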

Additional observations from a re-analysis of the deposited data

Results flagged for a closer look

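In each group of 4 tumors, a tumor was singled out when its gap to the nearest other tumor, divided by the range of the group, exceeded Dixon's 95% critical value. This was tested in 90 groups, of the 34 members and the 11 ratios in both groups, where chance alone flags about 1 in 20, or 4.5, and 7 were found. In cxC26 IL6KOs1 tumors, replicate 4 was high for Slc2a3 (1.55 log2 CPM against 1.35 to 1.36, a gap of 0.96 of the range), and replicate 1 was high for Pfkfb3 (4.64 against 2.90 to 3.11, a gap of 0.883). Replicate 2 was low for Pfkfb4 (3.30 against 3.59 to 3.64, a gap of 0.868). In cxC26 scr tumors, replicate 1 was high for Gpi1 (8.93 against 8.55 to 8.62, a gap of 0.833) and low for both Pgk1 (9.71 against 9.93 to 9.94, a gap of 0.948) and Ankrd37 (4.93 against 5.73 to 5.82, a gap of 0.893). Replicate 3 was low for Adm (-1.13 against 0.41 to 0.71, a gap of 0.838), on 6 reads.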

How the results depend on the processing

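A 2-fold threshold in place of the adjusted p alone left 829 genes higher and 521 lower over all genes, and 1 member in each direction (Slc2a3 and Eno2). Without a filter on low values 1 member was higher and 2 were lower. Weighting tumors by their spread, an alternative added after the data had been seen, called 8 members lower, with Aldoa, Ankrd37, Bnip3 and Pdk1 added. It called 4 higher, with Pgam1 added, and over all genes tested 3143 higher and 3367 lower. The weights of cxC26 IL6KOs1 replicates 1 to 4 were 0.524, 0.633, 2.155 and 0.942. Replicates 1 and 2, in which most members were high, thus counted least among the knockout tumors, and the added lower calls depend on that weighting. Leaving out single tumors, the members called higher numbered from 2 to 5, with 5 without cxC26 IL6KOs1 replicate 4. No pairing by replicate number was seen, with correlations between -0.059 and 0.057 for same-numbered tumors and between -0.082 and 0.062 for the others. These values cannot show whether tumors shared a batch or cage. With the replicate number as a block 4 members were higher and 4 lower, against 3 and 4 without it. The block changed 1 call among the members, that of Pgam1.

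Signs turned in 8 members, none of them called. With chromosome medians removed Slc16a3 was at 0.01, Gpi1 at 0.10 and Ddit4 at -0.14, and with weighted tumors Tpi1 and Pgk1 were both at -0.05. With a tumor left out, Slc2a1 ran from -0.36 to 0.05, Slc16a3 from -0.47 to 0.20, Pfkl from -0.26 to 0.12, Pgk1 from -0.04 to 0.25, Pfkfb3 from -0.04 to 0.54 and Ddit4 from -0.03 to 0.38. Removing chromosome medians took Pfkp/Pfkm to 1.17 (exact permutation p = 0.0286), Ldhb/Ldha to 1.84 (0.0571) and P4ha2/P4ha1 to -0.26 (0.229). Egln3/Egln1 reached the smallest p under quantile normalization (-1.17) and with a pseudocount of 1 CPM (-0.52). Slc16a3/Slc16a1 changed sign under quantile normalization (-0.05) and ran from -0.31 to 0.32 with a tumor left out. The causes were not tested. Of the 641 values for single members under the alternatives, 590 kept their direction and their side of the threshold. Since 27 of the 34 members were not called in the main fit, much of that number is uncalled genes that stayed uncalled. Among called members, Eno2 was called in 19 of 19 alternatives, P4ha2 in 18, Hk1 and Hk2 in 17 each, Ldha in 14 and Pfkp in 13. Slc2a3 was called in 14 of 18. Reads limit Slc2a3, Aldoc, Egln3, Adm and Ldhb most.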
